A study of Homo sapiens with 6 samples.

Results

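Of the 61806 genes counted in U87-MG cells, 8 were taken here as the metallothionein and zinc response genes. The rule was the gene symbol alone and used no measured value, although the members were chosen with earlier results of these data known. The members are 6 metallothioneins (MT1E, MT1F, MT1G, MT1M, MT1X and MT2A), the zinc-sensing transcription factor MTF1 and the zinc exporter SLC30A1. U87-MG is an established human glioblastoma line. The RNA libraries were 3 of cells given a negative control (NC), with wildtype as their genotype label, and 3 labelled as GRIK1 knockdown. The knockdown was made with siRNA according to the titles and the methods, whereas the design text speaks of shRNA. The titles number the knockdown libraries siRNA1, siRNA2 and siRNA3, the names of 3 different siRNA sequences in the methods. The text of the study says that the siRNA1 sequence was kept for the experiments after the knockdown test, under which the numbers would mark replicates of that sequence, but it names no sequence for these libraries. Nothing in the labels says that libraries of a group came from separate cultures, and the p-values measure only the spread between these libraries, which may be technical.

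Metallothioneins are small cytosolic proteins that hold zinc, copper and cadmium ions through cysteine side chains. When free zinc rises in a cell, MTF1 binds metal response elements in the promoters of metallothionein genes and of SLC30A1 and raises their transcription. SLC30A1 then carries zinc out of the cell across the plasma membrane, so storage and export respond to the same sensor. Metallothionein genes also respond to glucocorticoids, oxidants and hypoxia, and in the brain MT1 and MT2 proteins are best known from astrocytes.

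The 6 metallothionein members lie in a cluster on chromosome 16 of GRCh38. The coding sequences of MT2A, MT1E and MT1G are shown, since they let a reader see both the cysteine pattern and how little separates a highly counted member from an uncounted one. Cysteine codons are in capitals, and the sequences are those of GENCODE 29.
MT2A: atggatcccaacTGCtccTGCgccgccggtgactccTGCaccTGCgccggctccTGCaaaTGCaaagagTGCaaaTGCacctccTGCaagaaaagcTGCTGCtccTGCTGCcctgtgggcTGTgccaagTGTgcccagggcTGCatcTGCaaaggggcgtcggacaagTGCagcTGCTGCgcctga
MT1E: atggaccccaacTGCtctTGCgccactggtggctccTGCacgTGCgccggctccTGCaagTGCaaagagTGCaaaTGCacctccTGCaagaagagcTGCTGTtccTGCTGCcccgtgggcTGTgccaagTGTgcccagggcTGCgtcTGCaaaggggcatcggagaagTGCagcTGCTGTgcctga
MT1G: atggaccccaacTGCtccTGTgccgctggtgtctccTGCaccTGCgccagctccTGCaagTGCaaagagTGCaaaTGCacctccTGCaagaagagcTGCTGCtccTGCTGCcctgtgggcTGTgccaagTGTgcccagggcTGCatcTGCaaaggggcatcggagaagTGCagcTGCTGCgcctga
Each of the 6 members has 186 coding bases with the stop codon, and 20 of the 61 codons before the stop encode cysteine. Between members the coding sequences were 88.7% to 95.2% identical, with the highest value for MT1G and MT2A and the lowest for MT1F and MT1X. How reads that match several members were counted is not given in the sources used here. Of all windows of 50 bases in 1 mRNA of each gene, 45.1% were also found in a transcript of another gene for MT1X, 20.2% for MT1G, 7.05% for MT1M, 5.34% for MT1E, 4.88% for MT2A and 3.59% for MT1F. With windows of 100 bases the share was 0 for MT1E, MT1F, MT1G, MT1M and MT2A and 19.1% for MT1X. The gene that still shared windows with MT1X was not recorded, except that it was not another metallothionein. ENSG00000259827 overlaps MT1X on the same strand and was listed with 0 counts in each library. The MT1X counts are therefore uncertain.

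The libraries held between 11099909 and 14006968 counts. NC library 3 stood apart: its Pearson correlation across genes with the other NC libraries was 0.964 and 0.968, against 0.99 between those, and ribosomal protein genes took 9.38% of its counts, against 4.8% to 5.51% in the other 5 libraries. Values without it are therefore given beside those with all libraries, where they bear on a result. GRIK1 had 18, 9 and 8 counts in NC. The knockdown libraries had 15, 20 and 20. Its mean of 0.287 FPKM was below the filter of 0.5 FPKM, so GRIK1 was not tested, and counts this low cannot settle the knockdown. The study reports that GRIK1 was knocked down efficiently in U87-MG cells in its own test of the siRNAs. Since the counts of GRIK1 were not lower in the knockdown libraries, those are called the libraries labelled GRIK1 siRNA. Of 7 glioma line markers, VIM and CD44 were abundant with mean FPKM values of 1001 and 61.3, while NES, GFAP, S100B, SOX2 and OLIG2 were between 0.0133 and 0.585. The 8 markers of epithelial, endothelial, blood and liver cells were between 0 and 1.53 FPKM.

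Metallothionein RNA in these cells was mainly MT2A and MT1E. FPKM values, which scale a count by gene size (exonic bases) and library total, set the levels of the members side by side. MT2A (ENSG00000125148, chromosome 16 from 56608584 to 56609497), the most widely expressed human metallothionein, had a mean of 348 FPKM over the 6 libraries. MT1E (ENSG00000169715, from 56625475 to 56627112) followed with 118 FPKM. MT1X (ENSG00000187193, from 56682470 to 56684196) had 13.9 FPKM, MT1F (ENSG00000198417, from 56657731 to 56660698) 4.96 FPKM and MT1M (ENSG00000205364, from 56632659 to 56633981) 1.01 FPKM. The ranges of these 5 genes over the libraries did not overlap. SLC30A1 (ENSG00000170385, chromosome 1 from 211571568 to 211579161) had a mean of 7.41 FPKM, between MT1X and MT1F. MTF1 (ENSG00000188786, chromosome 1 from 37809574 to 37859592) had 4.77 FPKM, and its range of 3.71 to 5.9 FPKM held that of MT1F, 4.28 to 5.8 FPKM, so the order of those neighbours was not resolved. Together the 6 metallothioneins took 0.042% to 0.0537% of all counts in a library.

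MT1G (ENSG00000125144, from 56666730 to 56668065 on the minus strand) had 0 counts in all 6 libraries. A count of 0 allows up to 3 counts, which for MT1G corresponds to 0.285 to 0.36 FPKM depending on the library and covers counting error only. MT1G was not tested for that reason. The other 7 members were above the filter of a mean of 0.5 FPKM.

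The exonic size in the table is not the length of an mRNA. For MT1X it was 1727 bases, whereas the mRNA chosen for it from GENCODE 29 has 450 bases, and for MT1M it was 511 against 829 bases. Dividing the same counts by the length of the chosen mRNA gave means, in FPKM-like units, of 404 for MT2A, 176 for MT1E, 53.5 for MT1X, 13.3 for MT1F and 0.622 for MT1M. The order of the metallothioneins was the same on both scales, but the gap between MT2A and MT1X was smaller on the mRNA scale. SLC30A1 and MTF1, whose exonic sizes are close to their mRNA lengths, had 7.97 and 4.79 on that scale, so MT1F lay above SLC30A1 there and below it in FPKM.

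**Figure D1:**
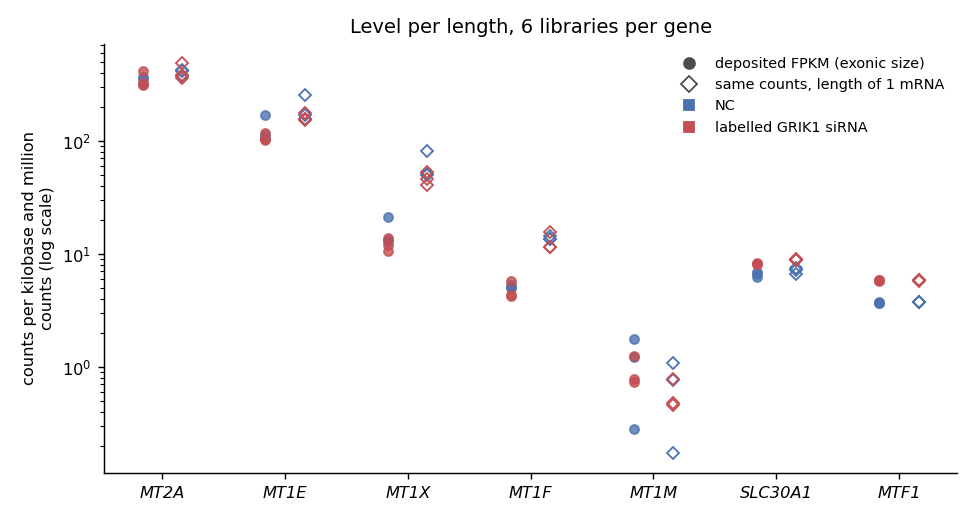
Level of each counted member in the 6 libraries, on a log axis of length-scaled counts; circles are the deposited FPKM values, diamonds the same counts divided by the length of 1 mRNA per gene, blue is NC and red the libraries labelled GRIK1 siRNA. MT2A was highest on both scales (means 348 and 404), and MT1X moved most between the scales (13.9 and 53.5).

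Which metallothionein genes had no counts was also recorded. The table lists 15 further metallothionein genes and pseudogenes. MT1A, MT1B, MT1H, MT4 and 5 others (MT1CP, MT1HL1, MT1IP, MT1P1 and MT1XP1) had 0 counts in each of the 6 libraries. Of the windows of 50 bases, 20.4% to 27.7% were shared with other genes for MT1B, MT1H, MT1HL1 and MT1XP1. No limit was computed for the genes with 0 counts, which does not show that they were silent. MT1DP had 2 counts and MT1JP 1 count, both in the second library labelled GRIK1 siRNA. MT3, the brain form of the family, had 2, 1 and 2 counts in NC against 5, 3 and 5 with the label GRIK1 siRNA, too few for the filter. MT1L, a transcribed pseudogene of the cluster, was the most abundant of the 15 with a mean of 11.7 FPKM.

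Promoters of 4 of the 8 members were found in the RefSeq table for GRCh38.p14, those of MT2A, MT1X, MTF1 and SLC30A1. The 250 bases before the start site are shown for the genes that MTF1 is known to control, as chr16:56608334-56608583 on the plus strand for MT2A, chr16:56682220-56682469 on the plus strand for MT1X and chr1:211579162-211579411 on the minus strand for SLC30A1. Capitals mark matches to the core of the metal response element, searched as TGCACNC and TGCGCNC on both strands.
MT2A: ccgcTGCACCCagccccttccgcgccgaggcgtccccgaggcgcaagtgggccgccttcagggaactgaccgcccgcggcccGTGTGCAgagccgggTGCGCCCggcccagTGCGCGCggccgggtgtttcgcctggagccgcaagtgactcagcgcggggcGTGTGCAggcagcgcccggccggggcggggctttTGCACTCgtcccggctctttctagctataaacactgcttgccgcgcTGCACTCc
MT1X: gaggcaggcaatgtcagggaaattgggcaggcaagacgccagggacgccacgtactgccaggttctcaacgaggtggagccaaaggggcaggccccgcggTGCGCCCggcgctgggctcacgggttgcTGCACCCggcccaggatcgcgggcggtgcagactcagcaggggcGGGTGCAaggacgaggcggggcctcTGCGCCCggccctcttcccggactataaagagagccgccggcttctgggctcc
SLC30A1: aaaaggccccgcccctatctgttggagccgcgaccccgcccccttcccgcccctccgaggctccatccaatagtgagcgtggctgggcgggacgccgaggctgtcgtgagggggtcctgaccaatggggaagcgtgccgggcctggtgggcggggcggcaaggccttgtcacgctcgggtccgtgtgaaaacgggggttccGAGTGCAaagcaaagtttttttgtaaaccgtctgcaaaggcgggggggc
MT2A held 7 matches, the first at -246 and the last at -8 from the start site. MT1X held 4 between -150 and -53, SLC30A1 held 1 at -49, and MTF1 held 0. Of 35116 promoters of the same length, 24.8% held at least 1 match, 0.37% at least 4 and 0.0313% at least 7. MT1H, which had 0 counts in every library, held 8 matches, and MT1B and MT4, also at 0 counts, held 3 each. The number of matches thus did not order these genes by their counts. A match describes letters and is not a measured binding site.

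The question of the series is whether the libraries labelled GRIK1 siRNA differ from NC. For the metallothioneins, no difference passed the test. Counts were scaled by the TMM method (trimmed mean of M values), are given as normalized CPM (library totals scaled to a common size), and were compared with edgeR's quasi-likelihood test and Benjamini-Hochberg adjustment over all 15870 genes above the filter; SE is the standard error of a log2 fold change. Of the 7 tested members, 0 had an adjusted p under 0.05, a threshold that 3.09% of all tested genes passed. No member was differentially expressed, which also asks for an absolute log2 fold change over 1 and held for 1.41% of all tested genes. At an unadjusted p under 0.05 there was 1 member, MTF1, against 25.1% of all tested genes. With DESeq2 and with limma there was also 1 past an adjusted p of 0.05, again MTF1, where 10.6% and 2.56% of all tested genes passed.

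MT2A had 319, 334 and 328 normalized CPM in NC (libraries 1, 2 and 3 in that order, here and in what follows). With the label GRIK1 siRNA it had 368, 290.0 and 276. The control libraries lay close together, inside the wider range of the others. The log2 fold change of MT2A was -0.07 (SE 0.15, edgeR adjusted p = 0.783), and it turned to 0.01 when library 3 labelled GRIK1 siRNA was left out.

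MT1E, a member of the MT1 branch that follows MT2A in the cluster, had 109, 118 and 201 normalized CPM in NC. In the libraries labelled GRIK1 siRNA it had 119.9, 103 and 107. Only NC library 3 was apart, and the other 5 values were between 103 and 119.9. The log2 fold change was -0.38 (SE 0.24, edgeR adjusted p = 0.346) with all libraries and -0.05 (SE 0.07) without NC library 3.

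MT1X, which encodes another widely expressed MT1 protein, had 22.7, 22.4 and 40.9 normalized CPM in NC against 23.3, 17.7 and 20.2 with the label GRIK1 siRNA. NC library 3 again was the high value. The log2 fold change was -0.49 (SE 0.26, edgeR adjusted p = 0.270), and it was -0.14 (SE 0.12) without that library. MT1F had 9.18, 9.34 and 11.1 normalized CPM in NC against 10.4, 7.72 and 7.78 with the label GRIK1 siRNA, so that the groups overlapped, with a log2 fold change of -0.19 (SE 0.19).

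MT1M rested on few reads. Its counts were 10, 7 and 2 in NC against 8, 5 and 5 in the other group. The lowest and the highest of these 6 counts were both in NC. The log2 fold change of MT1M was -0.26 with an SE of 0.63, and it was 0.25 without NC library 1 and -0.71 without NC library 3, so no direction can be read for it at this depth.

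MTF1 and SLC30A1 differed from the 5 counted metallothionein members in that their groups did not overlap. The libraries labelled GRIK1 siRNA lay above NC for 2 of the 7 tested members and for 19.4% of all tested genes. MTF1 had 29.3, 29.6 and 33.8 normalized CPM in NC, a mean of 30.9 ± 2.5 (SD, n = 3). With the label GRIK1 siRNA it had 44.5, 45.5 and 46.2, a mean of 45.4 ± 0.812 (SD, n = 3). The separation between the groups was several times the spread within each. MTF1 was 1.47-fold higher, a log2 fold change of 0.55 (SE 0.12, edgeR adjusted p = 0.0509), just short of the threshold. Without NC library 3, MTF1 was 1.54-fold higher and passed (edgeR adjusted p = 1.03e-05), in a fit in which 35.2% of all tested genes passed. MTF1 overlaps ENSG00000235673 on the opposite strand, and counting may not have used strand, but that gene had 1 count in all 6 libraries together. Over the 13 alternatives its adjusted p was between 1.03e-05 and 0.257, and its log2 fold change between 0.52 and 0.63.

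SLC30A1 had 39, 40.8 and 41.3 normalized CPM in NC, a mean of 40.4 ± 1.21 (SD, n = 3). With the label GRIK1 siRNA it had 46.6, 47.8 and 46.9, a mean of 47.1 ± 0.623 (SD, n = 3). Each of the latter was above each NC value. The difference was small, 1.17-fold or a log2 fold change of 0.22 (SE 0.11, edgeR adjusted p = 0.235). It passed without NC library 3, with a log2 fold change of 0.24 (SE 0.07, edgeR adjusted p = 0.0176). Over the 13 alternatives the adjusted p of SLC30A1 was between 0.0176 and 0.594.

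**Figure D2:**
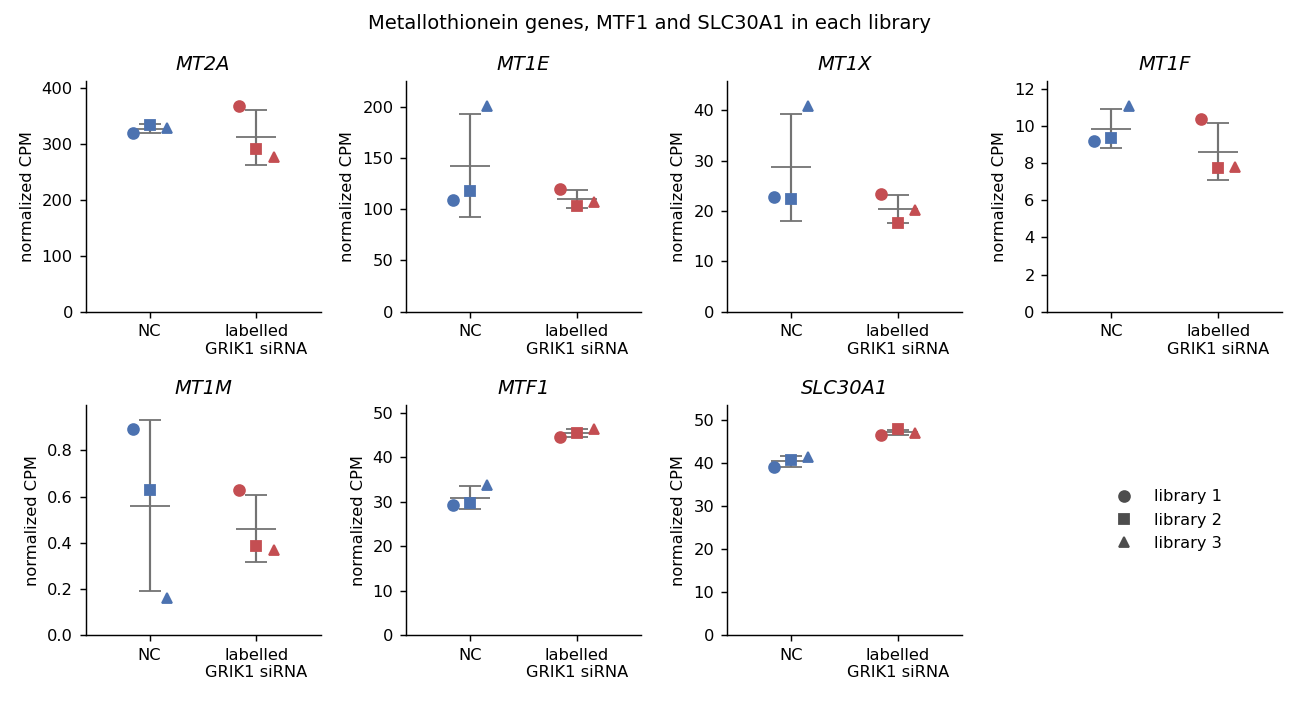
Normalized CPM of the 7 counted members, 1 panel per gene with an axis from 0; points are libraries (circle, square and triangle for library 1, 2 and 3), the horizontal line is the group mean and the bars its SD (n = 3). MTF1 (44.5 to 46.2 against 29.3 to 33.8) and SLC30A1 (46.6 to 47.8 against 39 to 41.3) are the panels with separate groups.

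**Figure D3:**
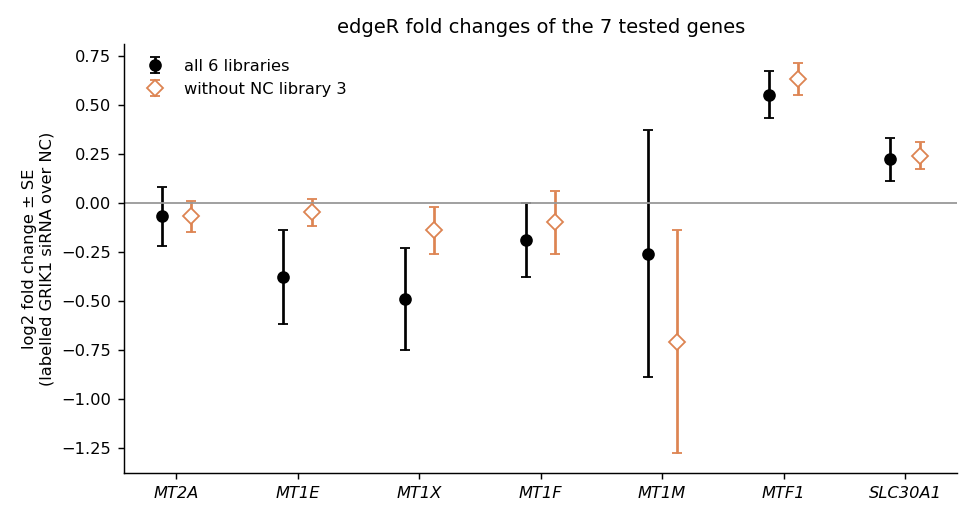
Log2 fold change of each tested member, libraries labelled GRIK1 siRNA over NC, with the standard error from edgeR; filled circles use all 6 libraries and open diamonds leave out NC library 3. MT1E moved from -0.38 to -0.05 and MT1X from -0.49 to -0.14, while MTF1 had 0.55 and 0.63.

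For each of the 5 counted metallothioneins, the difference between the group means of normalized CPM was smaller than the SD within the more variable group. In library 1 labelled GRIK1 siRNA, each of the 5 counted members was the highest of its group, which was so for 37.4% of all tested genes. Against the mean log2 CPM of libraries 2 and 3 of that group, library 1 was 1.3-fold higher for MT2A, 1.14-fold for MT1E, 1.23-fold for MT1X, 1.34-fold for MT1F and 1.46-fold for MT1M. For MT2A, 7.6% of all tested genes had a larger difference in that direction. MTF1 and SLC30A1 did not share it, with ratios of 0.972 and 0.984. There is 1 library per number.

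In NC library 3, 3 of the 5 counted metallothioneins were the highest of their group, as were 43.2% of all tested genes. MT1E was 1.77-fold and MT1X 1.8-fold above the mean log2 CPM of NC libraries 1 and 2, and MT1F was 1.2-fold above it. MT2A was equal (log2 difference 0.01) and MT1M was lower (-1.50, from 2 counts). Of all tested genes, 9.2% had a larger difference than MT1E in that direction, so this library moved many genes by as much.

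The ratio within a library shows the same without any scaling. For each 100 counts of MT2A there were 34.2, 35.3 and 61.2 counts of MT1E in NC. The libraries labelled GRIK1 siRNA had 32.5, 35.6 and 38.7. MT1E and MT2A thus kept nearly the same proportion in 5 libraries and a different one in NC library 3. MT1X had 7.13, 6.72 and 12.5 counts for each 100 of MT2A in NC against 6.33, 6.1 and 7.33 in the others, the same pattern. MT1L had 1.65, 1.69 and 2.94 in NC against 1.28, 1.68 and 1.48 in the others. MT1F, at 2.66 to 3.38 over all 6 libraries, varied least.

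**Figure D4:**
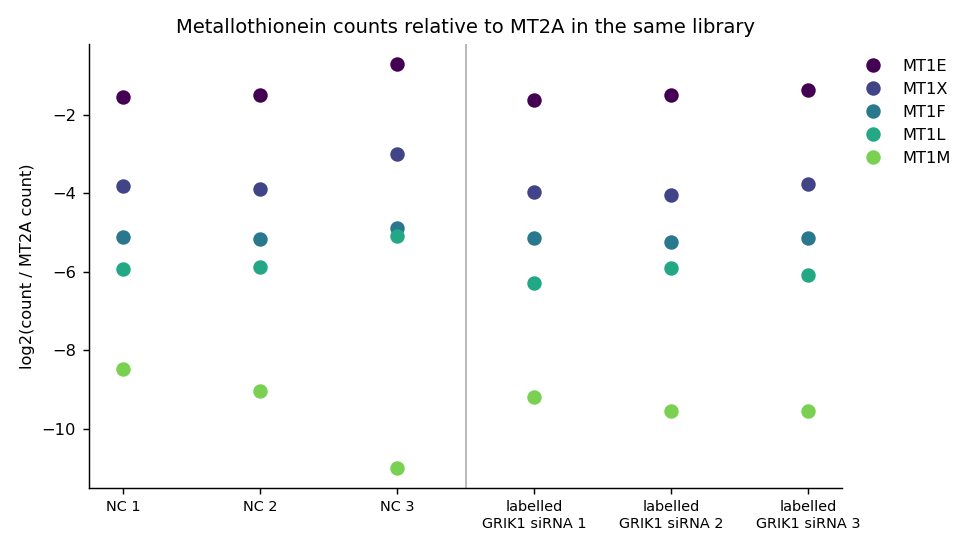
Log2 of the count of each metallothionein over the MT2A count of the same library, with the 3 NC libraries on the left and the 3 libraries labelled GRIK1 siRNA on the right. MT1E (-0.71 against -1.62 to -1.37 elsewhere) stands out in NC library 3, as does MT1X, and MT1M falls to -10.99 there, from 2 counts.

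Of the pseudogenes, MT1L had 59, 63 and 120 counts in NC against 60, 63 and 55 with the label GRIK1 siRNA. In normalized CPM these were 5.26, 5.66 and 9.65 against 4.71, 4.86 and 4.07, so that the groups did not overlap after scaling. The libraries labelled GRIK1 siRNA lay below NC in this way for 3021 of all 15870 tested genes. The log2 fold change of MT1L was -0.59 (SE 0.27, edgeR adjusted p = 0.217), and -0.26 without NC library 3. MT2P1, a copy of MT2A on chromosome 4, had 8, 13 and 13 counts in NC against 18, 7 and 6 in the others, and was high in library 1 labelled GRIK1 siRNA as MT2A was. Of its windows of 50 bases, 15.7% were shared with other genes, MT2A among them, so its reads are uncertain. MT1P3, on chromosome 20, had the largest fold change of the other metallothioneins, 1.71 on the log2 scale (SE 0.84, edgeR adjusted p = 0.243), but from 0, 2 and 1 counts against 3, 5 and 4. The groups of MT1P3 did not overlap, which held in that direction for 19.4% of all tested genes. Of the windows of 50 bases of MT1P3, 54.7% were shared with other genes, MT1E and MT1X among them, so its reads are uncertain too. The log2 fold changes without NC library 3 were 1.67 for MT1P3 and -0.24 for MT2P1. None of these 3 tested genes passed with edgeR, DESeq2 or limma, beside 3.09%, 10.6% and 2.56% of all tested genes. At an unadjusted p under 0.05 there were 0, beside 25.1%.

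As a description without a test, the genes whose levels followed the mean of the metallothioneins most closely were sought, by Pearson correlation of log2 CPM over the 6 libraries. The mean profile, as log2 distance from each gene's own mean, was 0.09, 0.05 and 0.14 in NC against 0.11, -0.21 and -0.18 with the label GRIK1 siRNA. It was averaged over 6 metallothioneins with the uncounted MT1G entered as 0, which makes these distances smaller but leaves r unchanged. MT1M, with 2 to 10 counts in a library, had the same weight in this mean as MT2A, so its counting error enters the profile and the order of the genes most like it. Among members, r with this mean was 0.945 for MT1F, 0.859 for MT2A, 0.715 for MT1X, 0.607 for MT1E and 0.145 for MT1M, while MTF1 had -0.635 and SLC30A1 -0.676. Without NC library 3 these were 0.953 for MT1F, 0.897 for MT2A, 0.929 for MT1X, 0.819 for MT1E and 0.906 for MT1M, so that NC library 3 set the low value of MT1M, and -0.611 for MTF1 and -0.636 for SLC30A1. Each metallothionein is part of the mean it was compared with, whereas MTF1 and SLC30A1 are not. The 6 nearest other genes were PARD3B, PPP1R26, HOXD-AS2, PPIAP31, SQSTM1 and SMILR, with r from 0.989 to 0.981. SQSTM1, the autophagy receptor p62, had 993, 963 and 1019 normalized CPM in NC against 972, 852 and 871 in the others. Without NC library 3 the 6 nearest were ADAM15, ENSG00000253785, TSPO, LINC01311, GEMIN4 and PGAM1, and 0 of the first 6 were among them. These values rest on 5 or 6 libraries, and all genes share the same ones.

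The other lists held 80 genes in all, 57 of which were tested: the 15 metallothioneins above, zinc exporters and importers, copper, iron and metal stress genes, and 10 glucocorticoid responsive genes, which do not handle metals. With edgeR, 2 of the 57 passed an adjusted p of 0.05, 1 higher and 1 lower, which is 3.51% against 3.09% of all tested genes. The median log2 fold change was -0.16 for the 57 and -0.02 for all tested genes. Without NC library 3 the median of the 57 was 0.01, and 24 passed, 11 of them higher, which is 42.1% against 35.2% of all tested genes. In the 5 fits that each lacked another library, 0 of all tested genes passed, so the 0 of the 57 there is not particular to these lists.

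SLC39A11, a zinc importer of the ZIP family, was the gene that fell. It had 40.7, 40.6 and 49.3 normalized CPM in NC against 25.6, 26.5 and 28.5 with the label GRIK1 siRNA. The groups did not overlap, as for 3021 of all 15870 tested genes that lay below NC. The log2 fold change of SLC39A11 was -0.70 (edgeR adjusted p = 0.0415), or -0.59 without NC library 3. It was 1 of 12 tested ZIP importers, 5 of which were higher and 7 lower, with a median of -0.10. SLC39A14, the most abundant of them with a mean of 69 FPKM, had -0.16, and SLC39A7, which releases zinc from the secretory pathway, had 0.22. Neither passed with all libraries. Without NC library 3 both did, SLC39A14 at -0.22 (edgeR adjusted p = 0.00116) and SLC39A7 at 0.19 (edgeR adjusted p = 0.0107). In that fit 5 of the 12 importers passed, which is 41.7% against 35.2% of all tested genes.

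Of the zinc exporters besides SLC30A1, 5 were tested and 2 were higher. None passed with edgeR, DESeq2 or limma, beside 3.09%, 10.6% and 2.56% of all tested genes. At an unadjusted p under 0.05 there were 0, beside 25.1%. Without NC library 3 only SLC30A5 passed, at 0.20 (edgeR adjusted p = 0.0105), which is 20% of the list against 35.2% of all tested genes. With all libraries SLC30A9 had the largest difference, -0.48, with 106, 109 and 215 normalized CPM in NC against 101, 106 and 101 in the others. Here too NC library 3 was the high value, and without it the log2 fold change was -0.07.

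HMOX1, heme oxygenase 1, which cadmium, arsenite and heme induce, was the gene of the metal stress list that rose. It had 30.3, 32.8 and 22.5 normalized CPM in NC against 92.3, 86.7 and 81.3 with the label GRIK1 siRNA, a log2 fold change of 1.61 (edgeR adjusted p = 0.0191). The groups were far apart, and the value without NC library 3 was 1.46. Of 9 tested genes of this list, 5 were higher, with a median of 0.05. GCLM and GCLC, which make glutathione, had 0.19 and 0.14, TXNRD1 -0.37 and NQO1 -0.36, and none of these passed with all libraries. TXNRD1 turned to 0.02 and NQO1 to 0.07 without NC library 3. GCLM (0.28, edgeR adjusted p = 0.0106) and GCLC (0.23, edgeR adjusted p = 0.00238) passed in that fit, as did HMOX1. DNAJB1 passed there in the other direction, at -0.15 (edgeR adjusted p = 0.0402). Of the list, 3 passed higher and 1 lower in that fit, which is 44.4% against 35.2% of all tested genes.

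In the copper list, 10 of 11 tested genes were lower, with a median of -0.38, and the median was 0.01 without NC library 3. With edgeR or limma 0 passed, beside 3.09% and 2.56% of all tested genes. With DESeq2 there was 1, where 10.6% of all tested genes passed. At an unadjusted p under 0.05 there were 2, beside 25.1% of all tested genes. COX11, a copper chaperone of cytochrome c oxidase, had the largest difference, -0.73 (edgeR adjusted p = 0.0670). Its values were 57.8, 61.5 and 85.7 normalized CPM in NC against 43.9, 38.2 and 41.6 in the others. The groups did not overlap, as for 3021 of all 15870 tested genes that lay below NC. Without NC library 3 the log2 fold change of COX11 was -0.53 (edgeR adjusted p = 3.76e-05). Of the copper list, 1 passed higher and 2 lower in that fit, which is 27.3% against 35.2% of all tested genes.

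In the iron list, 7 of 8 tested genes were lower, beside 8158 of all 15870 tested genes. The median of -0.39 was the same without NC library 3. With edgeR and with limma 0 passed, beside 3.09% and 2.56% of all tested genes. With DESeq2 4 passed, and 5 had an unadjusted p under 0.05, beside 10.6% and 25.1% of all tested genes. FTH1, the heavy chain of ferritin, had 4651, 4618 and 9023 normalized CPM in NC against 3608, 2847 and 2884 in the others, a log2 fold change of -0.97 (edgeR adjusted p = 0.109). NC library 3 was far above the other 5, and the log2 fold change was -0.57 without it. In that fit all 8 passed, 6 lower and 2 higher, beside 35.2% of all tested genes.

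Since metallothionein genes are also glucocorticoid targets, a list of such genes was read beside them. Of 9 tested, 4 were higher, with a median of -0.03. None passed with edgeR or limma, beside 3.09% and 2.56% of all tested genes. With DESeq2 1 passed, and 3 had an unadjusted p under 0.05, beside 10.6% and 25.1% of all tested genes. PER1, a clock gene with glucocorticoid response elements, had the largest difference, 0.78 (edgeR adjusted p = 0.126), from 24.9, 22.2 and 11.8 normalized CPM in NC to 35.1, 32.1 and 34.2. PER1 had 0.52 (edgeR adjusted p = 0.000377) without NC library 3. FKBP5 had 0.08 and TSC22D3 0.38 with all libraries, and 0.15 and 0.47 without that library, where TSC22D3 passed (edgeR adjusted p = 0.000427). KLF9 passed in that fit in the other direction, at -0.26 (edgeR adjusted p = 0.022), and had -0.38 with all libraries. Of the list, 2 passed higher and 1 lower in that fit, which is 33.3% against 35.2% of all tested genes.

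**Figure D5:**
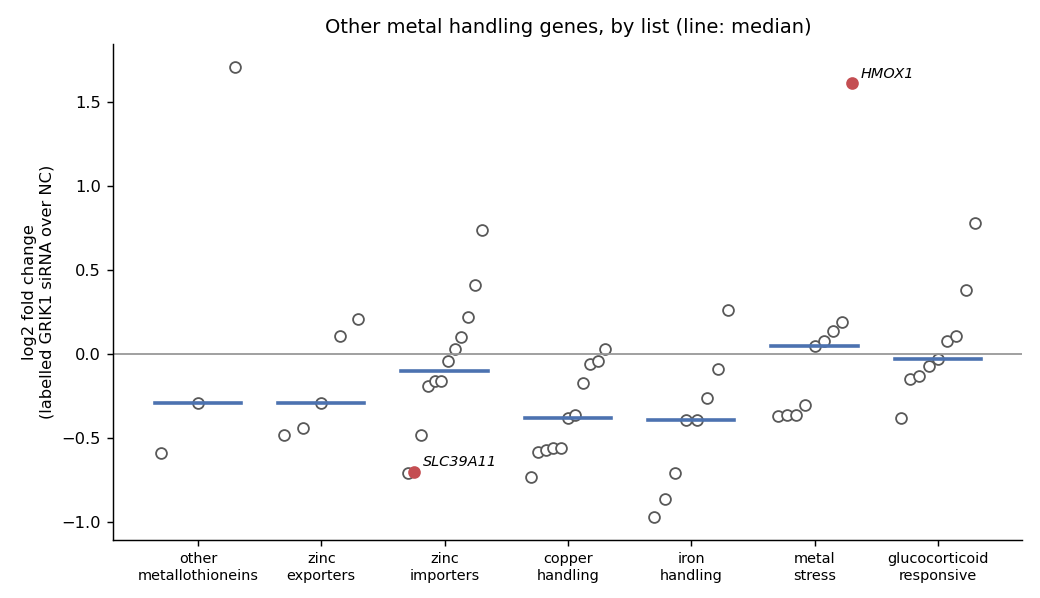
Log2 fold change of the 57 tested genes of the other lists, libraries labelled GRIK1 siRNA over NC; each point is a gene, the line is the median of the list, and filled red points passed an adjusted p of 0.05. HMOX1 (1.61) and SLC39A11 (-0.70) are the filled points, and the copper and iron lists have medians of -0.38 and -0.39.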

How the data were processed

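The submitters' processing notes name cutadapt 1.9.1, HISAT2 and HTSeq with GRCh38. Read length, strand setting and the treatment of reads with several matches are not given in the sources used here. The authors deposited whole-number counts per gene, without normalization, and FPKM values, which the authors computed from the counts. Dividing each count by the exonic size and the library total gave 100% of the deposited FPKM values to within rounding in the last decimal. Of the entries, 0 name no gene, and 0 columns of values were left unassigned.

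Genes whose FPKM averaged 0.5 or more across libraries were tested on the counts with edgeR 4.0.16 in R 4.3.3 (TMM scaling, quasi-likelihood test, no block, two-sided, Benjamini-Hochberg adjustment over all 15870 genes). Log2 CPM for profiles used a prior count of 2. The tests were tried on simulated data. Alternatives were median-of-ratios scaling, no filter, a filter of 1 FPKM, DESeq2 1.42.0, limma 3.58.1 with trend on log2(FPKM + 1) and log2(FPKM + 0.1), the replicate number as a block, and leaving out each library. Coordinates are those of the table; coding sequences and mRNA lengths came from GENCODE 29, 1 mRNA per gene (the longest principal coding transcript where there is one), and promoters from RefSeq. Python 3.11.15, numpy 2.4.6, pandas 2.3.3 and matplotlib 3.10.9 were used for the remaining steps.

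The members and lists were chosen with earlier results of these data known. The genes named are the 8 members, the other metallothioneins with a count, in each list those past the threshold or else the largest difference, GRIK1, and the genes most like the mean profile. Further list genes (SLC39A14, SLC39A7, SLC30A5, GCLM, GCLC, TXNRD1, NQO1, DNAJB1, FKBP5, TSC22D3 and KLF9) and the markers were named after their values were seen. Total counts of 11099909 to 14006968 set the precision, and limits for counts of 0 cover counting error only.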

Additional observations from a re-analysis of the deposited data

How the results depend on the processing

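The count of genes past an adjusted p of 0.05, 490 in edgeR, was 1403 without a filter, 1684 with DESeq2 and 280 with limma on log2(FPKM + 0.1), and the 224 differentially expressed genes became 664, 499 and 125 in that order and 113 with limma on log2(FPKM + 1). Leaving out each library in turn gave 0 to 5591 genes past the adjusted p and 0 to 491 differentially expressed, where the values above 0 came from leaving out NC library 3. Of the members, 1 (MTF1) passed with a filter of 1 FPKM, with DESeq2 and with limma at either pseudocount, and 0 to 2 passed when a library was left out. Of the list genes, 2 passed in edgeR, 8 without a filter, 8 with DESeq2 and 0 to 24 with a library left out. Of the 6 genes most like the mean profile, 0 were kept without NC library 3. The cause of these differences was not tested.

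The fold change of MT1M turned to 0.03 with limma on log2(FPKM + 0.1) and was between -0.71 and 0.25 with a library left out. That of MT2A turned to 0.01 with limma at either pseudocount and was between -0.21 and 0.01 with a library left out. Over 91 fold changes of members under alternatives, 80 kept direction and side of the threshold, 6 passed it (5 for MTF1 and 1 for SLC30A1) and 5 turned. With the replicate number as a block, 0 genes passed the adjusted p, 0 were differentially expressed and 0 list genes passed. Libraries with the same number shared only the number: the correlations of their deviations were -0.0703, 0.0441 and -0.0425.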
